A study of Mus musculus with 12 samples.

Results

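Nephron progenitor cells (NPC) cultured with the GSK3 inhibitor CHIR99021 (CHIR) were compared with NPC of the DMEM control. The comparison used 6 of the 12 RNA-seq libraries of the series, 3 treated with CHIR and 3 of the DMEM control, and 14313 of the 54184 genes in the tables. A gene was tested when at least 3 of the 6 libraries held it at 1 TPM or more, TPM being transcript abundance scaled to the same total in every library. The cells came from E13.5 mouse kidneys, from CD1 females mated to males with or without a Six2-GFP transgene. They were isolated with magnetic beads, expanded in culture in the medium NPEM, and then kept for 24 h in a test medium. The CHIR libraries came from differentiation medium, DMEM with serum replacement and FGF2, with 3.5 µM CHIR. Whether the DMEM control held serum replacement and FGF2 is not given in the sources used here, so the drug and these additions cannot be told apart in this contrast. The other libraries, 3 each, are of NPC given 20 µM YN1, which blocks PFKFB3, a regulator of glycolysis, in the same differentiation medium, and of NPC kept in NPEM. The methods name 3 biological replicates, and the labels number them 1 to 3 in every group without saying what a number marks. All libraries came from expanded cells in bulk, so fewer cells of a type and less RNA per cell cannot be told apart.

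GSK3 is a kinase that phosphorylates beta-catenin and so marks it for destruction. WNT ligands, or a drug that blocks GSK3, let beta-catenin accumulate and act with the TCF and LEF factors on target genes. In the developing kidney a WNT signal from the ureteric bud reaches the progenitors around its tips. It both maintains them and starts their conversion into the renal vesicle, the first epithelial stage of the nephron, in which Wnt4 is switched on.

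Each library summed to 969477 to 973162 TPM, and 13754 to 14569 genes reached 1 TPM. TPM carry no read counts, so the depth of the libraries is unknown. The defining genes of NPC were present: the 8 progenitor markers summed to 125 to 428 TPM with CHIR and to 307 to 715 TPM in the DMEM control. The 6 stromal markers summed to 484 to 2228 TPM with CHIR and to 689 to 1656 TPM in the DMEM control, mostly from Col1a1. The ureteric bud markers Ret, Wnt9b and Calb1 were below 1 TPM in all 6 libraries, as were Pecam1, Cdh5 and Tek of endothelium, Ptprc, Csf1r, Tyrobp and Hbb-bs of blood, Nphs1 of podocytes and all 4 tubule markers. Other genes of these cell types were present. Emcn, a sialomucin of capillaries, had 25.1, 31.8 and 13.9 TPM with CHIR and 235, 143 and 98.1 TPM in the DMEM control and fell (LogFC = -2.68, limma adjusted p = 0.0649 without and 0.0157 with a replicate block, 1 of 4 tested genes of a longer endothelial list to do so). Plvap, of fenestrated endothelium, had 3.44, 23.7 and 4.01 TPM with CHIR and 35.6, 18.9 and 22.5 TPM in the DMEM control, and Egfl7 had 14.98, 14.3 and 21.9 TPM with CHIR and 19.6, 30.8 and 36.5 TPM in the DMEM control. The haemoglobin gene Hba-a1 was at 0.15, 0 and 0 TPM with CHIR and at 7.22, 4.64 and 1.22 TPM in the DMEM control, and passed with the block (limma adjusted p = 0.0364). The 6 ureteric bud markers summed to 10.1 to 60.1 TPM with CHIR and to 10.7 to 64.3 TPM in the DMEM control.

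Epithelial genes were high in the libraries numbered 3 of both groups. Krt8 stood at 52.8 TPM in CHIR replicate 3 and 57.3 TPM in DMEM replicate 3, and at no more than 1.75 TPM in the other 4 libraries. Krt18, its partner keratin, stood at 68.1 and 63.3 TPM in these libraries and at no more than 2.27 TPM in the others, and Cldn4, a claudin, at 49.0 and 37.0 TPM and at no more than 1.18 TPM. Epcam, Cldn7 and Cdh16 were likewise highest in both. The part of these cell type markers in the results was not tested. Leaving out the pair numbered 3 left 0 calls in the fit with the block, though all 1752 calls still tested kept their sign. Libraries with the same replicate number deviated from their group means together, with correlations of 0.464 to 0.623, against -0.402 to -0.071 for different numbers.

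Without the replicate number, 36 genes passed an adjusted p under 0.05, 0.252% of those tested, 5 higher (0.0349%) and 31 lower (0.217%) with CHIR. With the replicate number as a block, called the paired fit here, 1832 genes passed, 12.8% of those tested. Of these 481 were higher (3.36%) and 1351 lower (9.44%), and all 36 of the unpaired calls were among them. All 1832 had the same sign in all 3 pairs, so a shared direction of the pairs adds nothing to a call. An unadjusted p under 0.05 was reached by 2754 genes in the unpaired fit and 5096 in the paired fit. At the study's threshold, a LogFC beyond 0.6 with an unadjusted p under 0.05, 373 genes were higher and 1545 lower in the unpaired fit. LogFC is the difference of the group means of log2(TPM + 1), CHIR minus DMEM control, which understates the change of genes with few TPM. In the sentences that follow, genes rose or fell where they passed in the paired fit, and the unpaired adjusted p is given beside.

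The excess of lower genes depended on the scaling. The median LogFC of all genes tested was -0.15, and 65.4% of genes had a LogFC below 0. Quantile normalization set that median to 0.00 and gave 527 higher and 600 lower genes in the paired fit. Of the 1832 paired calls, 1001 passed after quantile normalization and all 1832 kept their sign. The count of calls also depended on the replicate pairs: the paired fit called 429 genes without replicate 1, 1383 without replicate 2 and 0 without replicate 3. Of the 1832 calls, 1740, 1736 and 1752 were still tested without replicates 1, 2 and 3, and all of these kept their sign. In limma 1740, 1736 and 1736 of them had an unadjusted p under 0.05. These fits reuse libraries of the full fit, so they are not separate tests. The unpaired fit called 0 to 6 genes when 1 library was left out, and 0 without CHIR replicate 3, DMEM replicate 2 or DMEM replicate 3. Separately, 3717 genes (26% of those tested) had CHIR libraries that did not overlap the DMEM libraries, 823 higher and 2894 lower. Of the 1832 paired calls 1384 did not overlap, so separate groups are common among called genes and do not set a gene apart from them. The plot of LogFC against level shows the calls in both directions.

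**Figure D1:**
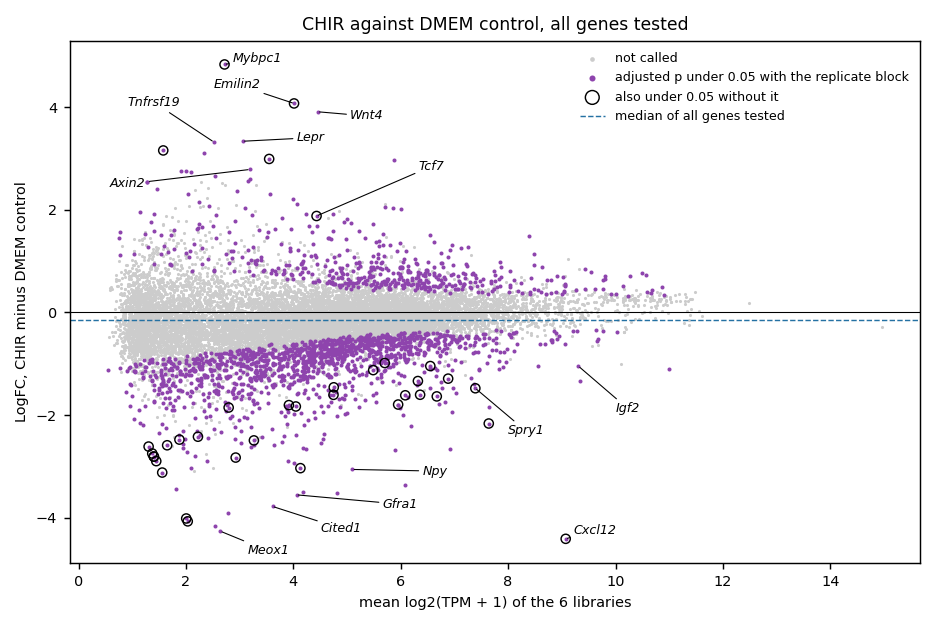
LogFC (CHIR minus DMEM control, y axis) against the mean log2(TPM + 1) of the 6 libraries (x axis) for the 14313 genes tested. Purple points passed an adjusted p under 0.05 with the replicate block (1832 genes), black circles also without it (36 genes), and the dashed line is the median of all genes, -0.15. Most called genes lie below 0, among them Cxcl12 at -4.41.

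The 15 largest rises among genes whose libraries did not overlap ran from a LogFC of 2.21 to 4.83 and were led by Mybpc1, Emilin2 and Wnt4. Mybpc1, a myosin-binding protein of muscle, stood at 16.5, 73.7 and 32.2 TPM with CHIR and at 0.13, 0.05 and 0.59 TPM in the DMEM control (LogFC = 4.83, unpaired SE 0.52, adjusted p = 0.0384 unpaired and 0.0189 paired). Emilin2, a glycoprotein of the extracellular matrix, stood at 43.5, 105 and 60.3 TPM with CHIR, against 2.86, 1.57 and 5.16 TPM in the DMEM control (LogFC = 4.07, unpaired SE 0.43, adjusted p = 0.0384 and 0.0205). Separate groups were a condition of being in this set. Lepr, the leptin receptor, rose to 19.7, 24.0 and 34.9 TPM with CHIR, against 0.59, 1.23 and 4.10 TPM in the DMEM control (LogFC = 3.34, paired SE 0.23, adjusted p = 0.0645 unpaired and 0.0128 paired). Bex1, an X-linked gene expressed mainly in brain, also passed unpaired (LogFC = 2.99, adjusted p = 0.0493 unpaired and 0.0116 paired), with 24.3 to 42.9 TPM with CHIR and 1.74 to 5.74 TPM in the DMEM control. The other members of this group were the receptors Tnfrsf19 and Cxcr4, the WNT pathway genes Axin2, Lef1 and Notum, the carbonic anhydrase Car3, the metalloprotease Mmp10, Dach2, Thy1 and the guidance ligand Sema3c. All 15 were chosen from the paired calls, 3 of them passed unpaired, and Sema3c lost its paired call after quantile normalization.

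The 15 largest falls ran from a LogFC of -4.41 to -2.83 and included chemokine, growth factor receptor and progenitor genes. Cxcl12, the chemokine ligand of the receptor CXCR4, stood at 159, 115 and 84.7 TPM with CHIR, against 1881, 3231 and 2509 TPM in the DMEM control (LogFC = -4.41, unpaired SE 0.29, adjusted p = 0.0227 unpaired and 0.0124 paired). Its receptor gene Cxcr4 rose (9.81, 72.2 and 13.3 TPM with CHIR, against 0.61, 6.66 and 3.15 TPM in the DMEM control, LogFC = 2.59, paired SE 0.31, adjusted p = 0.175 unpaired and 0.0230 paired). Ligand and receptor moved in opposite directions. Both were chosen for groups that did not overlap, so the same directions in every pair of libraries follow from the choice. Gfra1, a co-receptor for the ligand GDNF, fell to 3.30, 11.9 and 1.08 TPM with CHIR, against 61.4, 83.1 and 34.5 TPM in the DMEM control (LogFC = -3.55, paired SE 0.30, adjusted p = 0.0827 and 0.0160). Hpgd, which inactivates prostaglandins, had 3.20, 14.2 and 7.94 TPM with CHIR and 53.6, 159 and 98.3 TPM in the DMEM control (LogFC = -3.52, paired SE 0.12, adjusted p = 0.0716 and 0.00887). Atp1b1, a subunit of the sodium and potassium pump, passed in both fits, with 3.44, 4.60 and 8.26 TPM with CHIR and 50.2, 37.9 and 62.3 TPM in the DMEM control (LogFC = -3.03, adjusted p = 0.0384 and 0.0124). The neuropeptide gene Npy (LogFC = -3.06), the arginase Arg1 (LogFC = -4.16), the anion exchanger Slc26a7 (LogFC = -3.91), Tcf24, Moxd1, Shisa3, Tcp11l2, Fam19a4, Fgl2, Meox1 and Cited1 complete the group. These 15 were also chosen from the paired calls, 3 of them passed unpaired, and Fam19a4 and Fgl2 lost the paired call after quantile normalization.

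Of the 36 unpaired calls, 10 carry names of predicted genes or small RNAs. Also of the 36, 8 were listed at 0 TPM in all 3 CHIR libraries. Among the 10, Gm24135 and Gm24710, singled out after their values were seen, had identical values in the 6 libraries, so they are uncertain as separate genes. Among the paired calls, 160 of the 1832 carry such names.

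WNT feedback and target genes were mostly higher with CHIR. Of 17 tested members of this list, 8 rose and 2 fell, beside 3.36% called higher and 9.44% called lower of all genes tested. The median LogFC was 0.47 against -0.15 for all genes. Axin2, a scaffold of the complex that destroys beta-catenin and a feedback target of WNT, stood at 17.5, 19.7 and 34.9 TPM with CHIR, against 1.14, 2.82 and 4.12 TPM in the DMEM control (LogFC = 2.79, paired SE 0.19, adjusted p = 0.0649 unpaired and 0.0128 paired). Tcf7, which encodes a DNA-binding partner of beta-catenin, passed in both fits, with 34.5, 40.2 and 47.7 TPM with CHIR and 7.97, 10.3 and 13.03 TPM in the DMEM control (LogFC = 1.88, unpaired SE 0.23, adjusted p = 0.0466 and 0.0124). Lef1, another such partner, rose in each pair, although its level differed between replicate numbers: it had 38.3, 6.95 and 31.5 TPM with CHIR, against 6.10, 0.70 and 3.15 TPM in the DMEM control (LogFC = 2.55, paired SE 0.20, adjusted p = 0.148 and 0.0157). The CHIR libraries of Lef1 were all above the control libraries, which was a condition of being among the largest rises. However, CHIR replicate 2 exceeded DMEM replicate 1 by less than 1 TPM. Nkd1, an inhibitor of Dishevelled, had 111, 72.2 and 151 TPM with CHIR and 20.0, 16.5 and 45.1 TPM in the DMEM control (LogFC = 2.06, paired SE 0.15, adjusted p = 0.0888 and 0.0157). Tnfrsf19, a receptor of the TNF family and a known WNT target, had 8.69, 29.0 and 19.5 TPM with CHIR and 0.65, 0.20 and 2.01 TPM in the DMEM control (LogFC = 3.32, paired SE 0.45, adjusted p = 0.0709 and 0.0252). Notum, a secreted enzyme that inactivates WNT ligands, had 2.11, 3.83 and 16.1 TPM with CHIR and 0.04, 0.20 and 0.36 TPM in the DMEM control (LogFC = 2.41, adjusted p = 0.121 and 0.0381).

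Smaller rises were found for Znrf3, a ubiquitin ligase that removes WNT receptors (LogFC = 0.83, adjusted p = 0.216 unpaired and 0.0454 paired), and for the cyclin gene Ccnd1 (LogFC = 0.86, adjusted p = 0.767 and 0.0358). Ccnd1 spread widely between replicate numbers, with 92.7, 4.37 and 28.1 TPM with CHIR and 59.8, 1.45 and 15.3 TPM in the DMEM control. The groups overlapped, and each pair went up, as in every gene called higher in the paired fit. The 2 members that fell were Zcchc12 (LogFC = -2.42, adjusted p = 0.0466 and 0.0213) and Bambi, a decoy receptor of the TGF-beta family (LogFC = -1.25, adjusted p = 0.116 and 0.0252). Myc did not pass, with 33.8, 36.1 and 25.1 TPM with CHIR and 27.1, 29.2 and 24.0 TPM in the DMEM control (LogFC = 0.22, paired SE 0.11, adjusted p = 0.545 and 0.226). Sp5, a direct WNT target in other cells, reached only 0.13, 0.88 and 0.82 TPM with CHIR, against 0, 0.04 and 0.07 TPM in the DMEM control, and was not tested. The list had 5 rises and 1 fall in the paired fit without replicate 1, 6 and 1 without replicate 2, and none without replicate 3, and 8 rises and 2 falls after quantile normalization. The plot of WNT targets by library shows genes chosen from the paired calls, all of which had the same sign in every pair.

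**Figure D2:**
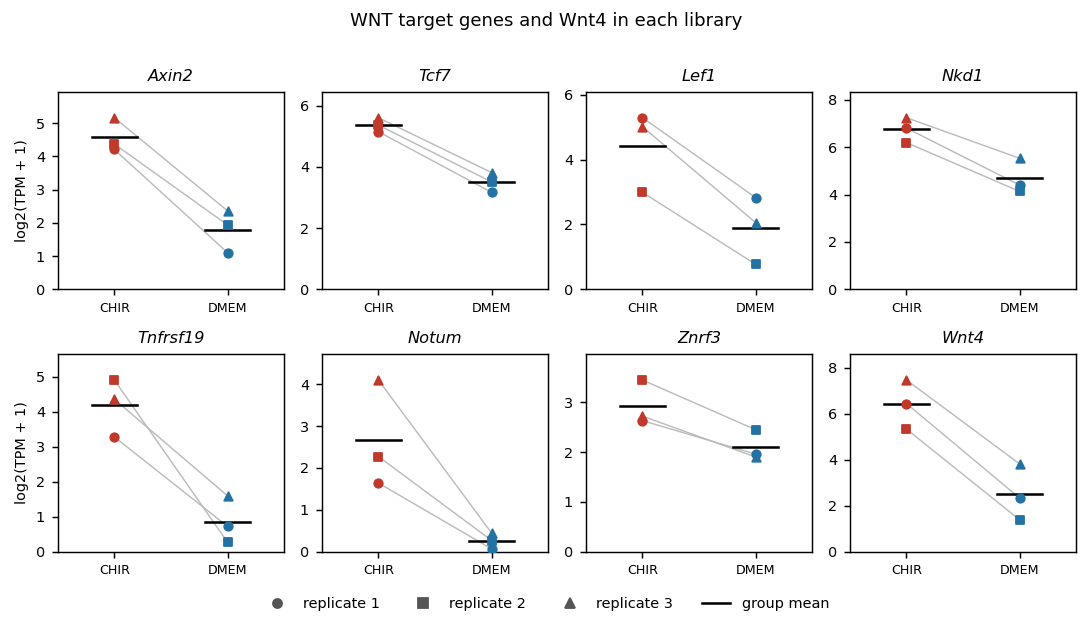
log2(TPM + 1) (y axis) of 7 WNT target genes and Wnt4 in the CHIR and DMEM control libraries (x axis). Marker shapes give the replicate number, grey lines join libraries of the same number and black bars are the means of 3 libraries. The genes were chosen from the paired calls, all of which had the same sign in every pair. By this choice every CHIR library lies above the DMEM control library of its number. Axin2, for example, had 17.5 to 34.9 TPM with CHIR and 1.14 to 4.12 TPM in the control.

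The sequences before the transcription starts of these genes were searched for CTTTGA, the core of the DNA motif bound by TCF and LEF factors, read on either strand (TCAAAG on the opposite one). Promoters were taken from RefSeq (GRCm38.p6), of which the 250 bases before each start were used. The 8 risen targets and Wnt4 make 9 genes, of which 6 had a promoter in the table, and 2 of the 6 held a match, Lef1 and Tnfrsf19. A match was found in 13.8% of all 32851 promoters, and 12.3% of 9894 tested genes held one in at least 1 promoter. Both matches lie at alternative starts, 1 of 4 listed for Lef1 and 1 of 2 for Tnfrsf19, and TPM per gene do not tell which start was used. The windows with a match are shown with that of Axin2, which has none; Axin2 was chosen as a feedback target often used to read out WNT signaling, and all are written 5′ to 3′ on the gene's strand, with the matches in capitals.
Lef1, chr3:131156044-131156293, plus strand: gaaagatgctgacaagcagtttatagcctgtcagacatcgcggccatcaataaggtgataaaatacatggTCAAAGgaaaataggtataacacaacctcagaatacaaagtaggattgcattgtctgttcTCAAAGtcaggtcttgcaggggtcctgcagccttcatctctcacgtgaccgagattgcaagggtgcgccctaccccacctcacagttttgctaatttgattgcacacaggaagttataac
Tnfrsf19, chr14:61037988-61038237, minus strand: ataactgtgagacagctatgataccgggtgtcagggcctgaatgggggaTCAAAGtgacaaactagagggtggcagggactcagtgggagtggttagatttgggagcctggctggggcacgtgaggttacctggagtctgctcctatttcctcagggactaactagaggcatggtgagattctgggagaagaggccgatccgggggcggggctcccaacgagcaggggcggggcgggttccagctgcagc
Axin2, chr11:108920099-108920348, plus strand: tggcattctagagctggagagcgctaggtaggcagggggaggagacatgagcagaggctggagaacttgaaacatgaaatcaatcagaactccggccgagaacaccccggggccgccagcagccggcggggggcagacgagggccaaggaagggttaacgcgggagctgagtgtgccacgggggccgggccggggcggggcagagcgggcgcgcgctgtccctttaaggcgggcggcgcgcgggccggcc
In Lef1 the matches begin 180 and 120 bases before the start, and in Tnfrsf19 201 bases before it.

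Among the WNT ligands, 6 passed the filter, 1 rose and 1 fell. For this and the next lists, 3.36% of all genes tested were called higher and 9.44% lower. Wnt4, the ligand that drives the conversion of progenitors into epithelium, had the smallest paired adjusted p of the ligands, with 85.8, 39.1 and 176 TPM with CHIR and 3.99, 1.596 and 13.02 TPM in the DMEM control (LogFC = 3.91, paired SE 0.14, adjusted p = 0.0827 unpaired and 0.00887 paired). Wnt2b, a ligand of the kidney stroma, fell to 1.20, 3.97 and 3.80 TPM with CHIR, against 11.4, 36.3 and 25.5 TPM in the DMEM control (LogFC = -2.62, paired SE 0.17, adjusted p = 0.0840 and 0.0124). The groups of Wnt2b did not overlap. Wnt4 is among the largest rises, for which separate groups were a condition of choice. Of 18 tested receptors and co-receptors, 4 fell and none rose: the Frizzled Fzd4 (LogFC = -1.45), the co-receptor Lrp6 (LogFC = -0.93), the R-spondin receptor Lgr4 (LogFC = -0.65) and the ligand Rspo3 (LogFC = -2.31), with adjusted p of 0.0917 to 0.289 unpaired and 0.0157 to 0.0456 paired. Lgr4 lost its call after quantile normalization. The secreted antagonists were divided, with 2 of 11 rising and 2 falling. Dkk1, which blocks LRP co-receptors, had 0.80, 0.69 and 0.32 TPM with CHIR and 9.84, 19.2 and 2.69 TPM in the DMEM control (LogFC = -2.55, paired SE 0.42, adjusted p = 0.111 and 0.0333), and Sfrp4 fell likewise (LogFC = -2.45, adjusted p = 0.120 and 0.0253). Sfrp2 (LogFC = 0.87, adjusted p = 0.122 and 0.0333) and Frzb (LogFC = 0.97, adjusted p = 0.353 and 0.0436) rose, and Frzb lost the call after quantile normalization.

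In the intracellular part of the pathway, 7 of 28 tested genes fell and none rose, beside 9.44% called lower of all genes tested. The median LogFC was -0.28. The 7 falls included the TCF genes Tcf7l1 and Tcf7l2. Tcf7l1 stood at 33.5, 55.4 and 34.5 TPM with CHIR and 71.7, 124 and 85.6 TPM in the DMEM control (LogFC = -1.17, paired SE 0.09, adjusted p = 0.111 unpaired and 0.0160 paired). The corepressor Tle2 fell more (LogFC = -2.05, adjusted p = 0.146 and 0.0192), and Apc2, Bcl9l and Btrc also fell, with LogFC of -1.32, -0.76 and -0.52. Ctnnb1, which encodes beta-catenin, fell by a small amount, with 679, 722 and 712 TPM with CHIR and 867, 926 and 897 TPM in the DMEM control (LogFC = -0.35, paired SE 0.07, adjusted p = 0.183 and 0.0415). Its libraries were tight within each group, and the fall exceeds the median of all genes, -0.15. Tcf7l2, Bcl9l and Btrc lost the call after quantile normalization, which left 4 falls. The genes of the drug's own targets did not pass: Gsk3b had 34.8, 37.8 and 34.4 TPM with CHIR and 43.6, 50.4 and 32.8 TPM in the DMEM control (LogFC = -0.22, paired SE 0.13, paired adjusted p = 0.290), and Gsk3a had a LogFC of -0.04 (paired SE 0.08, paired adjusted p = 0.740).

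Several genes of the progenitor state fell with CHIR. Of 21 tested members of the progenitor identity list 7 fell and none rose, beside 9.44% called lower of all genes tested. The median LogFC was -0.58, and 17 had a LogFC below 0, beside 65.4% of all genes. A negative difference in all 3 pairs was found for 14, for which no share over all genes is given. The paired fit called 2 members of the list without replicate 1, 8 without replicate 2 and 0 without replicate 3. Cited1, which marks the least committed progenitors, had 1.39, 6.13 and 1.11 TPM with CHIR and 27.9, 84.4 and 36.7 TPM in the DMEM control (LogFC = -3.78, paired SE 0.18, adjusted p = 0.0709 unpaired and 0.0116 paired). Meox1, a homeobox gene of the cap mesenchyme, was nearly absent with CHIR, at 0.25, 0.94 and 0.19 TPM, against 32.0, 64.5 and 8.47 TPM in the DMEM control (LogFC = -4.26, paired SE 0.44, adjusted p = 0.0740 and 0.0195). Both genes are among the largest falls, for which separate groups were a condition of choice. Its relative Meox2 fell to 25.4, 57.5 and 22.9 TPM with CHIR, against 126, 129 and 108 TPM in the DMEM control (LogFC = -1.87, adjusted p = 0.0794 and 0.0239). Eya1, a cofactor of SIX2, had 52.4, 111 and 29.1 TPM with CHIR and 135, 201 and 138 TPM in the DMEM control (LogFC = -1.47, paired SE 0.26, adjusted p = 0.164 and 0.0371). Six2, the factor that keeps progenitors undifferentiated, fell less, with 27.2, 125 and 64.3 TPM with CHIR and 47.1, 175 and 121 TPM in the DMEM control (LogFC = -0.72, paired SE 0.11, adjusted p = 0.583 and 0.0311). The Six2 groups overlapped. Its fall within each pair adds nothing, as all paired calls had the same sign in all 3 pairs. The adhesion gene Cdh11 and Hoxd11 had falls of -0.58 and -0.47 and lost the call after quantile normalization.

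Other progenitor genes did not pass. Osr1 had 10.7, 34.2 and 20.1 TPM with CHIR and 11.4, 61.0 and 32.8 TPM in the DMEM control (LogFC = -0.53, paired SE 0.18, paired adjusted p = 0.109). Gdnf, the ligand that draws out the ureteric bud, had 8.74, 50.3 and 11.98 TPM with CHIR and 16.4, 37.7 and 14.6 TPM in the DMEM control (LogFC = -0.23, paired SE 0.26, paired adjusted p = 0.545), and its pairs differed in sign. Of 13 tested genes of the renal vesicle and early nephron, Wnt4 and Ccnd1 rose and none fell, beside 3.36% called higher of all genes tested. Pax8, a factor of the induced mesenchyme, had 3.19, 19.6 and 11.9 TPM with CHIR and 2.52, 22.6 and 14.9 TPM in the DMEM control (LogFC = -0.08, paired SE 0.18, paired adjusted p = 0.761). The Notch ligand Jag1 had 15.3, 4.24 and 29.0 TPM with CHIR and 12.5, 5.40 and 14.4 TPM in the DMEM control (LogFC = 0.32, paired SE 0.26, paired adjusted p = 0.433). Lhx1 and Fgf8, which act with Wnt4 in the renal vesicle, were not tested, with Lhx1 at no more than 0.74 TPM in the CHIR libraries and 0.67 TPM in the control libraries, and Fgf8 at no more than 1.67 TPM with CHIR and 0.18 TPM in the DMEM control.

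**Figure D3:**
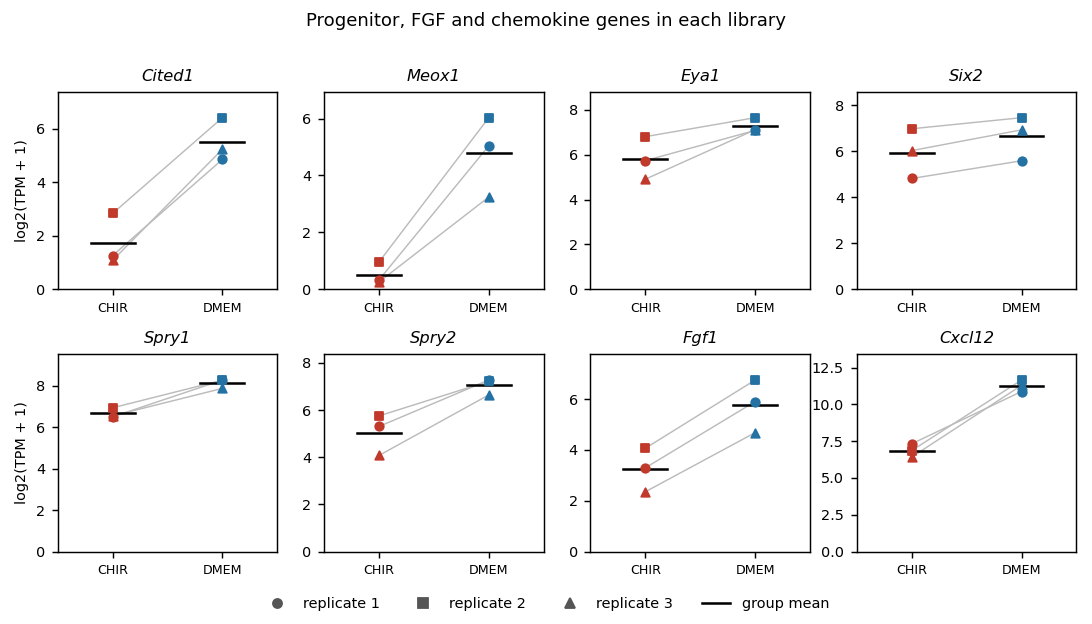
log2(TPM + 1) (y axis) of progenitor, FGF pathway and chemokine genes in the CHIR and DMEM control libraries (x axis). Shapes give the replicate number, grey lines join libraries of the same number and black bars are means of 3 libraries. The genes were chosen from the paired calls, and by this choice each CHIR library lies below the DMEM control library of its number. The distance is large for Cxcl12 (84.7 to 159 TPM with CHIR, 1881 to 3231 TPM in the control) and small for Six2.

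FGF signals through ERK maintain NPC, and the Sprouty genes are both targets and inhibitors of that pathway. Of 20 tested members of the FGF and ERK list 6 fell and none rose, beside 9.44% called lower of all genes tested. The median LogFC was -0.41. Spry1 passed in both fits, with 88.9, 121 and 92.0 TPM with CHIR and 306, 305 and 232 TPM in the DMEM control (LogFC = -1.48, unpaired SE 0.18, adjusted p = 0.0466 unpaired and 0.0160 paired). Spry2 had 38.5, 52.9 and 15.9 TPM with CHIR and 154, 148 and 98.8 TPM in the DMEM control (LogFC = -2.002, paired SE 0.22, adjusted p = 0.0954 and 0.0210). The groups did not overlap for either gene. Fgf1 fell to 8.81, 15.7 and 4.11 TPM with CHIR, against 58.8, 107 and 24.6 TPM in the DMEM control (LogFC = -2.54, paired SE 0.13, adjusted p = 0.114 and 0.0116). The ETS factors Etv1 (LogFC = -0.98) and Etv5 (LogFC = -0.70) and the ligand Fgf10 (LogFC = -1.53) also fell. Dusp6, the phosphatase of ERK, did not pass, with 107, 166 and 84.2 TPM with CHIR and 141, 95.8 and 92.8 TPM in the DMEM control. All 6 falls held after quantile normalization, and 4, 6 and 0 of the list fell without replicates 1, 2 and 3.

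Of 24 tested genes of glucose uptake and glycolysis 11 rose and none fell, beside 3.36% called higher of all genes tested. The median LogFC was 0.63. The 11 had LogFC from 0.58 to 1.92 and limma adjusted p of 0.0840 to 0.374 unpaired and 0.0157 to 0.0481 paired. Slc2a1, the glucose transporter GLUT1, had 43.1, 43.1 and 57.9 TPM with CHIR and 17.8, 16.4 and 27.4 TPM in the DMEM control (LogFC = 1.21, paired SE 0.11, paired adjusted p = 0.0189). Hk2, the hexokinase of the first step, had 35.9, 26.6 and 46.9 TPM with CHIR and 11.3, 4.20 and 13.2 TPM in the DMEM control (LogFC = 1.92, paired SE 0.20, paired adjusted p = 0.0195). The CHIR libraries exceeded every control library for both genes. Pfkp, the platelet-type phosphofructokinase, rose though its groups overlapped, with 73.1, 14.8 and 62.4 TPM with CHIR and 27.3, 4.92 and 21.0 TPM in the DMEM control (LogFC = 1.45, paired SE 0.11, paired adjusted p = 0.0157). Further along the pathway Aldoa, Gapdh, Pgk1, Eno1 and Pkm rose with LogFC of 0.70, 0.79, 0.89, 1.13 and 0.84. The lactate transporters Slc16a1 and Slc16a3 rose with LogFC of 1.58 and 1.45, and Pfkl with 0.58. Pfkfb3, the target of YN1, did not pass (13.1, 12.95 and 12.6 TPM with CHIR and 13.9, 5.23 and 7.74 TPM in the DMEM control, LogFC = 0.57, paired SE 0.27, paired adjusted p = 0.194), nor did Ldha (LogFC = 0.84, paired adjusted p = 0.0522). Of the 24, 7 had a LogFC below 0, down to -0.76 for Aldoc, and 6 were lower with CHIR in all 3 pairs. The list had 10 rises after quantile normalization, in which Pfkl lost the call, and 12, 10 and 0 without replicates 1, 2 and 3.

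Other metabolic lists held fewer calls, beside 12.8% called of all genes tested. Of 21 tested genes of the TCA cycle 2 rose (Idh3a and Mdh2) and 1 fell (Idh1), and of 21 tested genes of mevalonate and cholesterol synthesis none passed limma's adjusted threshold in either fit, with LogFC between -0.41 and 0.32 and with 0 unpaired and 3 paired at an unadjusted p under 0.05. Among 14 tested hypoxia-inducible targets Slc2a1 and Vegfa rose and Epas1 fell. Vegfa, the endothelial growth factor, had 160, 138 and 152 TPM with CHIR and 96.3, 68.0 and 78.3 TPM in the DMEM control (LogFC = 0.89, paired SE 0.09, adjusted p = 0.0769 unpaired and 0.0205 paired). Epas1, which encodes HIF2 alpha, had 4.99, 2.76 and 2.49 TPM with CHIR and 36.0, 18.3 and 10.5 TPM in the DMEM control (LogFC = -2.23, paired SE 0.22, adjusted p = 0.0888 and 0.0192).

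Genes of amino acid supply, tRNA charging and ribosome production held calls for part of their members, nearly all higher. Of all genes tested 3.36% were called higher and 9.44% lower, and 65.4% had a LogFC below 0. All 20 tested genes of the ATF4 and serine synthesis list had a LogFC above 0 (median 0.77), and 8 rose. ATF4 is the transcription factor of the amino acid stress response. Its targets Chac1 (LogFC = 1.48, adjusted p = 0.256 unpaired and 0.0345 paired), Slc7a3 (LogFC = 1.07) and Asns (LogFC = 0.98) rose, with Ddit4, Slc3a2, Psph, Atf4 itself and Shmt2, the mitochondrial serine hydroxymethyltransferase. Shmt2 had 183, 150 and 189 TPM with CHIR and 117, 61.8 and 103 TPM in the DMEM control (LogFC = 0.92, paired SE 0.14, adjusted p = 0.132 and 0.0293). Its groups were separate. All 17 tested aminoacyl-tRNA synthetases, which load amino acids onto tRNA, had a LogFC above 0 (median 0.44), and 8 rose, from Yars at a LogFC of 0.44 to Gars at 0.73. Of 18 tested genes of the MYC family and the nucleolus 9 rose and 2 fell. Nop56, which guides methylation of ribosomal RNA, had 362, 338 and 283 TPM with CHIR and 203, 135 and 159 TPM in the DMEM control (LogFC = 0.99, paired SE 0.12, adjusted p = 0.0817 and 0.0235). Npm1, Ncl, Fbl, Nolc1, Nop58, the polymerase subunits Polr1a and Polr1b and the pyrimidine enzyme Cad rose with LogFC of 0.57 to 0.84, whereas Mxd4 and Mxd1, which oppose MYC, fell (LogFC = -1.38 and -0.997). Of 83 tested cytosolic ribosomal protein genes 11 rose, 82 had a LogFC above 0, and the median LogFC was 0.25. Quantile normalization left 7 rises in the ATF4 list, 5 among the synthetases, 7 rises and 1 fall in the MYC and nucleolus list and 5 rises among the ribosomal proteins, whose median then was 0.10. Without replicate 1 the counts were 5, 1, 3 rises and 1 fall, and 0, without replicate 2 they were 12, 4, 5 rises and 2 falls, and 7, and without replicate 3 none of these lists held a call.

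**Figure D4:**
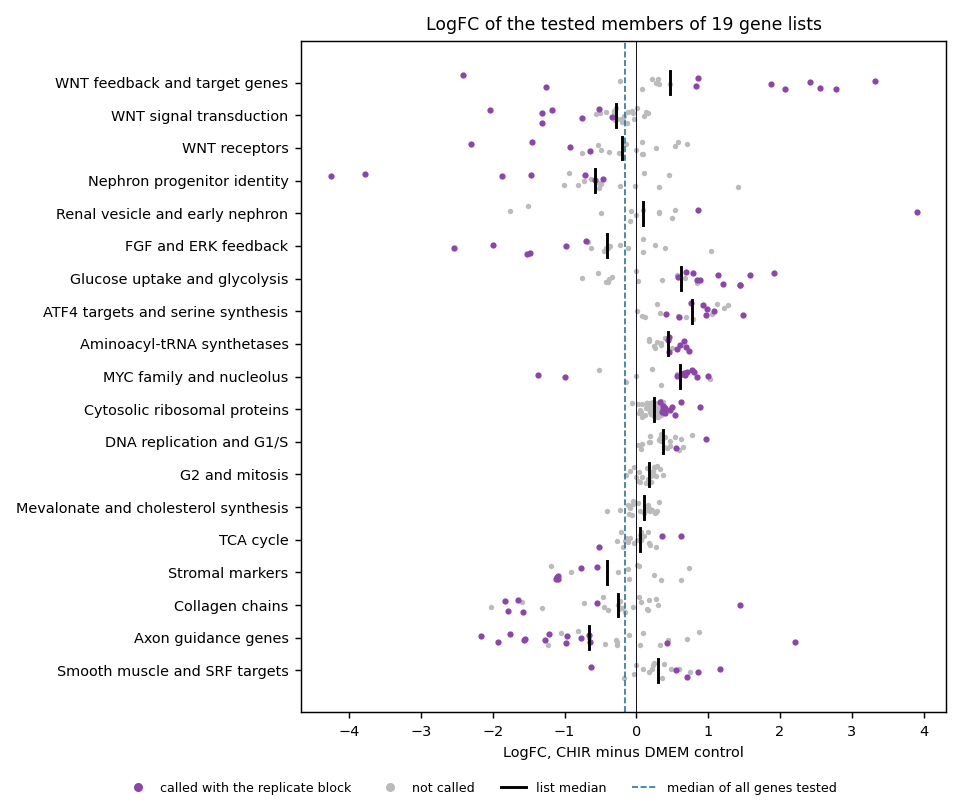
LogFC (CHIR minus DMEM control, x axis) of the tested members of 19 gene lists (y axis), each point 1 gene. Purple points were called with the replicate block, black bars are list medians and the dashed line is the median of all genes tested, -0.15. The medians of glycolysis (0.63), ATF4 (0.77) and nucleolus genes (0.60) lie to the right, those of progenitor (-0.58) and axon guidance genes (-0.66) to the left.

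The lists of DNA replication and of mitosis held few calls, beside 12.8% called of all genes tested. All 24 tested genes of DNA replication and G1/S had a LogFC above 0 (median 0.37), but only the licensing factor Cdt1 (LogFC = 0.55, adjusted p = 0.151 unpaired and 0.0414 paired) and Orc1 (LogFC = 0.96, adjusted p = 0.138 and 0.0436) rose. Of 22 tested genes of G2 and mitosis none passed in limma, and 0 had an unadjusted p under 0.05 in either fit. The inhibitors of cyclin-dependent kinases were divided. Of 15 tested genes of a list of these inhibitors, D cyclins and related genes, 2 rose (Cdkn1a and Ccnd1) and 3 fell. Cdkn1a, a target of p53, had 340, 43.7 and 256 TPM with CHIR and 182, 14.3 and 79.4 TPM in the DMEM control (LogFC = 1.37, paired SE 0.17, adjusted p = 0.518 and 0.0235). Cdkn1c had 42.8, 94.3 and 61.3 TPM with CHIR and 96.7, 706 and 210 TPM in the DMEM control (LogFC = -1.94, paired SE 0.33, adjusted p = 0.202 and 0.0346). Cdkn1c thus had separate groups, and Cdkn1a overlapping ones. Cdkn1b fell as well (LogFC = -0.79, adjusted p = 0.0786 and 0.0303), as did Rbl2 (LogFC = -0.81, limma adjusted p = 0.0993 unpaired and 0.0326 paired).

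Of 18 tested stromal markers 12 had a LogFC below 0, near the 65.4% of all genes, and 6 fell and none rose, among them Pdgfra (LogFC = -1.12, adjusted p = 0.576 unpaired and 0.0376 paired), Pdgfrb (LogFC = -0.77), Lox (LogFC = -1.099) and Meis2, with 108, 158 and 101 TPM with CHIR and 223, 308 and 247 TPM in the DMEM control (LogFC = -1.095, paired SE 0.09, adjusted p = 0.0841 and 0.0168). Foxd1, which defines the cortical stroma, had 0.90, 0.27 and 1.10 TPM with CHIR and 1.88, 3.01 and 4.20 TPM in the DMEM control and did not pass (LogFC = -1.19, paired adjusted p = 0.0545). Of 26 tested collagen chains 18 had a LogFC below 0, also near that share, and 5 fell and 1 rose. Of all genes tested 9.44% were called lower and 3.36% higher. Col6a1 and Col6a2, subunits of the same collagen, had LogFC of -1.65 and -1.80 (paired SE 0.09 each, adjusted p = 0.206 and 0.146 unpaired, 0.0116 each paired), while Col18a1, the source of endostatin, rose (LogFC = 1.44, adjusted p = 0.375 and 0.0230). Col1a1 made up most of the stromal sum and did not pass, with 1350, 384 and 2075 TPM with CHIR and 1273, 543 and 1446 TPM in the DMEM control. The part of the stromal markers in the other results was not tested.

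Of 29 tested axon guidance genes, many of which also guide cells in the kidney, 12 fell and 2 rose, with a median LogFC of -0.66. Of all genes tested 9.44% were called lower and 3.36% higher. Epha4, an ephrin receptor, had 5.81, 11.1 and 2.99 TPM with CHIR and 38.2, 38.8 and 18.3 TPM in the DMEM control (LogFC = -2.17, paired SE 0.20, adjusted p = 0.0969 unpaired and 0.0189 paired). Sema6a (LogFC = -1.93), Slit3 (LogFC = -1.77), Robo2, the SLIT receptor that limits the field of bud outgrowth (LogFC = -1.57), and Slit2 (LogFC = -1.21) also fell, whereas Sema3c and Efnb1 rose (LogFC = 2.21 and 0.42). After quantile normalization 7 fell and 1 rose, and without replicate 1 only 4 fell. Of 18 tested smooth muscle genes 4 rose and 1 fell. Cnn1, the smooth muscle calponin, had 253, 55.02 and 292 TPM with CHIR and 144, 21.6 and 111 TPM in the DMEM control (LogFC = 1.17, paired SE 0.14, adjusted p = 0.500 and 0.0230), and Myh11, Tagln and Actg2 rose with LogFC of 0.86, 0.71 and 0.56. The groups overlapped for Cnn1, as the replicate numbers differed by more than the treatment did.

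CHIR was also compared with YN1, a contrast in which both groups had the same described medium. It reuses the 3 CHIR libraries of the main comparison. The genes given values here were chosen from the calls of that comparison, so these are not separate tests of them. Without the block 1 gene passed, Cxcl12, and 2216 genes had an unadjusted p under 0.05. With the block 223 of 14269 genes passed (1.56%), 65 higher (0.456%) and 158 lower (1.11%) with CHIR. In NPC given YN1, Wnt4 had 5.30, 1.36 and 18.04 TPM (LogFC of CHIR against YN1 = 3.70, paired SE 0.20, paired adjusted p = 0.0236), Axin2 0.83, 2.81 and 5.76 TPM (LogFC = 2.73, paired adjusted p = 0.0293) and Tcf7 7.01, 8.56 and 12.4 TPM (LogFC = 2.04, paired adjusted p = 0.0247). Cxcl12 had 1967, 3399 and 2708 TPM with YN1 (LogFC = -4.49, adjusted p = 0.0244 unpaired and 0.0236 paired) and Cited1 13.6, 83.2 and 29.0 TPM (LogFC = -3.33, paired adjusted p = 0.0269). The YN1 values of these genes lay near those of the DMEM control, and 0 genes passed for YN1 against the DMEM control in either limma fit, with 75 unpaired and 1074 paired at an unadjusted p under 0.05. Pkm (LogFC = 0.89, paired adjusted p = 0.0387) and Aldoa (LogFC = 0.78, paired adjusted p = 0.0314) passed for CHIR against YN1, whereas Slc2a1 (LogFC = 1.17, paired adjusted p = 0.0530), Eno1 (LogFC = 1.06, paired adjusted p = 0.0524) and Hk2 (LogFC = 1.59, paired adjusted p = 0.0549) did not.

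The NPEM libraries, of NPC kept in expansion medium, placed these genes in another order. Cxcl12 averaged 120 ± 37 TPM with CHIR, 2540 ± 676 TPM in the DMEM control and 158 ± 108 TPM in NPEM (SD, n = 3 each). Slc2a1 averaged 48.0 ± 8.6 TPM with CHIR, 20.5 ± 6.0 TPM in the DMEM control and 45.5 ± 22.1 TPM in NPEM. The CHIR levels of both genes lay within the NPEM range or close to it. Gfra1 averaged 5.43 ± 5.72 TPM with CHIR, 59.7 ± 24.4 TPM in the DMEM control and 5.54 ± 1.87 TPM in NPEM. Wnt4 and Cited1 differed in this respect: Wnt4 averaged 100 ± 69 TPM with CHIR, 6.202 ± 6.02 TPM in the DMEM control and 0.50 ± 0.26 TPM in NPEM, and Cited1 averaged 2.88 ± 2.82 TPM with CHIR, 49.6 ± 30.4 TPM in the DMEM control and 50.4 ± 35.9 TPM in NPEM. The comparison of the DMEM control with NPEM shares its DMEM libraries with that of CHIR, so the values are given side by side without a test between them.

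**Figure D5:**
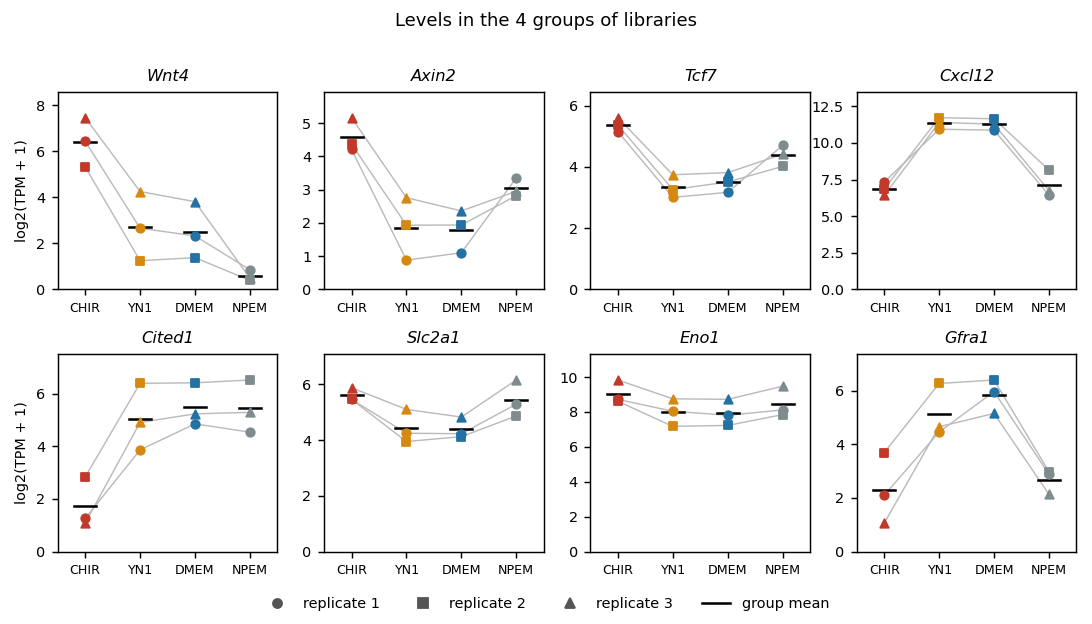
log2(TPM + 1) (y axis) of 8 genes in the CHIR, YN1, DMEM control and NPEM control libraries (x axis), 3 libraries each. Shapes give the replicate number, grey lines join libraries of the same number and black bars are means of 3 libraries. The 8 genes were chosen from the paired calls of CHIR against the DMEM control. YN1 and DMEM control libraries lie at similar levels, and CHIR stands apart from both for Wnt4, Axin2, Tcf7, Cxcl12 and Cited1.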

How the data were processed

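The files hold gene-level TPM that the authors deposited. Per the labels and the methods, poly-A RNA was sequenced without strand, STAR served for alignment (builds mm9 and mm10), and RSEM and Kallisto for quantification. Tool versions and the annotation release are not given in the sources used here. The TPM were taken as given and joined by gene across tables, with 0 per-sample columns left over. Columns and files of the authors' own comparisons (effects, fold changes, p-values) were not used.

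Each gene passing the filter was fitted on log2(TPM + 1) by lmFit and eBayes with trend (limma 3.58.1, R 4.3.3). Tests were two-sided and adjusted by Benjamini-Hochberg over the 14313 genes, with n = 3 per group and a threshold of 0.05. TPM hold no depth, so no counting error can be given.

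The fit with the replicate number as a block is given beside the main one because same-numbered CHIR and DMEM libraries deviated together in every pair (0.464 to 0.623 over all genes tested). The pairing thus comes from the data and the shared numbers, not from a stated origin. Unpaired p-values measure the spread between these samples within groups, and paired p-values the spread of the differences within pairs.

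The comparison, the 45 gene lists (940 genes, of which 767 passed the filter and 21 were not found by name) and their members were chosen with earlier results of these data known. The named genes are the 15 largest rises and 15 largest falls among genes called in the paired fit whose libraries do not overlap, leaving out predicted and small RNA names. List members that were called or that define a list, and the cell type markers, were named as well. Dusp6, Pfkfb3, Ldha and Gsk3a were added after their values were seen. Krt18, Cldn4, Epcam, Cdh16, Aldoc, Plvap and Egfl7 also meet none of these rules and were named with their values known. Alternatives were quantile normalization, other filters (none, or a mean of at least 5 TPM), 0.1 as pseudocount, a joint fit of the 4 groups, no variance trend, and leaving out libraries.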

Additional observations from a re-analysis of the deposited data

How the results depend on the processing

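Depth limits could not be read, since TPM hold none, and each group had 3 libraries. The count of genes called without the block, 36, became 1832 with the replicate block, 2 after quantile normalization, 0 without a filter, 1 at a mean of at least 5 TPM, 437 with all 4 groups in one fit and 3503 with all 4 groups and the replicate block. The paired count of 1832 became 1127 after quantile normalization and 3503 with all 4 groups. The cause was not tested. With libraries left out the counts ran from 0 to 6 unpaired, from 1227 to 2093 at the study's threshold and, for pairs left out, from 0 to 1383 with the block. Quantile normalization moved the share of higher genes among paired calls from 26.3% to 46.8%.

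Among the named genes some that were not called unpaired changed sign. Quantile normalization gave LogFC of -0.1069 for Col1a1, 0.1493 for Epcam, 0.0061 for Gsk3a and 0.1335 for Pax8, the same with the replicate block. With a library left out LogFC ran from -0.4092 to 1.4809 for Actg2, from -0.3649 to 1.958 for Ccnd1, from -1.4581 to 0.3536 for Cdh16, from -0.8124 to 1.0067 for Cldn4, from -0.4724 to 0.7425 for Col1a1, from -0.1797 to 0.3062 for Dusp6, from -1.0563 to 0.9726 for Epcam, from -0.9638 to 0.235 for Gdnf, from -0.2497 to 1.0092 for Jag1, from -1.5139 to 0.652 for Krt8, from -2.03 to 1.213 for Krt18, from -1.1537 to 0.0044 for Osr1 and from -0.9023 to 0.5712 for Pax8. With the replicate block and a pair left out it ran from -0.2063 to 0.3027 for Col1a1, from -0.2644 to 0.3252 for Dusp6, from -0.3381 to 0.0883 for Epcam, from -0.5546 to 0.0696 for Gdnf, from -0.0048 to 0.6184 for Jag1 and from -0.2489 to 0.0257 for Pax8.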

Other observations

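Genes of the insulin-like growth factor axis were divided. Of 14 tested members 2 rose and 4 fell in the paired fit, beside 3.36% called higher and 9.44% called lower of all genes tested. Igf2, a fetal growth factor, had 415, 369 and 560 TPM with CHIR and 701, 871 and 1241 TPM in the DMEM control (LogFC = -1.05, limma adjusted p = 0.115 unpaired and 0.0213 paired), and H19, the noncoding RNA imprinted beside it, fell as well (LogFC = -1.099, adjusted p = 0.151 and 0.0192). Both had separate groups. Irs1, an adaptor of the insulin and IGF receptors, had 22.2, 26.6 and 23.4 TPM with CHIR and 11.7, 12.2 and 11.7 TPM in the DMEM control (LogFC = 0.96, adjusted p = 0.0769 and 0.0239). The binding proteins differed, with Igfbp3 higher (LogFC = 1.49, adjusted p = 0.436 and 0.0115) and Igfbp2 and Igfbp5 lower (LogFC = -1.33 and -0.74). Of 25 tested integrin and laminin chains 3 fell, Lama2, Lama4 and Itgb5 (LogFC = -1.41, -1.25 and -0.62), near the 12.8% of all genes called.

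Other signaling and stress lists held calls for a minority of their members. Beside them, 12.8% of all genes tested passed in the paired fit, 3.36% higher and 9.44% lower. Among 14 tested retinoic acid genes Stra6, the cellular receptor for retinol binding protein, rose to 26.7, 67.1 and 73.1 TPM with CHIR, against 5.25, 24.0 and 15.7 TPM in the DMEM control (LogFC = 1.91, adjusted p = 0.161 unpaired and 0.0190 paired), while the receptor Rxra and the retinoic acid hydroxylase Cyp26b1 fell (LogFC = -0.68 and -1.12). Notch2, the main Notch receptor of early nephrons, had 24.9, 39.9 and 25.1 TPM with CHIR and 51.2, 84.0 and 52.8 TPM in the DMEM control (LogFC = -1.03, adjusted p = 0.124 and 0.0188), and the coactivator Maml1 fell too (LogFC = -0.54). None of 11 tested Notch genes was called higher, although 3 had a LogFC above 0. Quantile normalization left 1 fall in the Notch list. Of 24 tested BMP genes Fst, which binds activins, rose and Bambi and Bmp4 fell, a share near that of all genes. Of 14 immediate early genes Jun and Atf3 rose (LogFC = 1.09 and 0.81). Of 33 tested Hox genes Hoxd3, Hoxd9, Hoxd10 and Hoxd11 fell, also near the share of all genes called. Quantile normalization left 1 of the Hox falls, and 0 Hox genes were called without replicate 1. Among 16 tested p53 targets Cdkn1a and Phlda3 rose (LogFC = 1.37 and 0.53) and Sesn1 and Trp53inp1 fell (LogFC = -0.94 and -1.11). Of 19 tested NRF2 targets and glutathione peroxidases Txnrd1 rose and Gpx3, Gpx7, Keap1 and Nqo1 fell. The falls depended on the scaling, as quantile normalization gave 3 rises and 0 falls in this list. Their limma adjusted p ran from 0.129 to 0.588 unpaired and from 0.029 to 0.0497 paired.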
